A study of Mus musculus with 9 samples.

Results

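The genes described here are 10 members of the Toll-like receptor pathway: Tlr1, Tlr2, Tlr4, Tlr6, Tlr7, Tlr9, Tlr13, Cd14, Ly96 and Myd88. They were taken by gene symbol from the deposited tables, and all 10 were found among 24411 listed genes. All 10 also averaged log2(10) or more across the 9 mice, which was the minimum for testing, as did 14867 genes in all. The rule goes by gene name and uses no measured value, but the list was drawn up with earlier results of these data known.
The hippocampus of 9 male C57BL/6J wild-type mice was profiled by RNA sequencing, with 3 mice in each group. Every mouse carried AAV9, a viral vector injected into CA1 on both sides, which expressed Egfp with a CTG repeat in its 3′-UTR. The CUG10 mice had 10 repeats and received vehicle. CUG300 mice had 300 repeats and received either vehicle or CWG-cPIP, a cyclic pyrrole-imidazole polyamide made to bind CAG and CTG repeat DNA, at 83 μg/kg in the same injection as the virus. Tissue was taken 10 days after gene transfer. The labels give an age of 10 weeks for every group, and the methods give 9 weeks at injection. No group lacked the virus, so an effect of AAV9 itself is shared by all groups and was not measured. The promoter that drives Egfp is not given in the sources used here.
Toll-like receptors are membrane proteins of innate immune cells that recognise conserved microbial molecules and some molecules released by damaged host cells. Surface receptors bind lipids and proteins, whereas Tlr7, Tlr9 and Tlr13 sit in endosomes and bind nucleic acids. After binding, these receptors recruit the adaptor Myd88, which assembles IRAK kinases and leads to NF-kB activation and cytokine transcription. In the brain, microglia are the cells best known for these genes, and infiltrating monocytes also carry them.
The deposited values are regularized logarithms (rlog), which are read counts scaled between libraries, shrunken toward each gene's mean and placed on the log2 scale. A difference of 1 therefore stands for a doubling, and the shrinkage makes differences of low genes smaller than they would be in counts. How many reads each mouse had is not known from these values. Median rlog over the genes tested was between 8.43 and 8.54 per mouse. The 4 hippocampus markers, Prox1, Wfs1, Fibcd1 and C1ql2, were measured in every mouse, with a summed level of 11.8 to 12.59 on the log2 scale. Between the vehicle groups Fibcd1 fell by 0.80 (limma adjusted p = 0.0241), and the other 3 did not pass, with Wfs1, like Fibcd1 a marker of CA1, at −0.02, C1ql2 at −0.01 and Prox1 at 0.12.

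Promoter sequences of the members are shown first for 4 genes in which short motifs of immune transcription factors were found, because several of the members differed between groups in the same direction. Windows were the 250 bases before each RefSeq start (GRCm38.p6), and 6 of the 10 members had at least 1 window, 8 windows in all. Only bases outside annotated exons (GENCODE M21) are printed, 5′ to 3′ on the strand of the gene, with the motif matches in capitals. Distances are to the RefSeq start. For Tlr2 and Tlr13 the annotated gene begins upstream of that start, so their matches lie nearer to the annotated gene than the distance given. Tlr4, Tlr7 and Ly96 are named only, and Cd14 is named only.
Myd88, the shared adaptor, on chr9:119340042-119340268, minus strand, directly before the first exon of its longest transcript and inside the annotated gene, in an intron of another transcript that starts farther upstream, with an interferon-stimulated response element whose first base lies 40 bases before the start, overlapping a gamma-activated site at 46 bases:
Myd88: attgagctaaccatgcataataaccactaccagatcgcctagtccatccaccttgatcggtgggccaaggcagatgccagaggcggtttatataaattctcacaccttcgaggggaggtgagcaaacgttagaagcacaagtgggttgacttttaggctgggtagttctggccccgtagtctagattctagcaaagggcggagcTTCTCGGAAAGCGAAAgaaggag
Tlr2, the receptor for bacterial lipoproteins, on chr3:83841768-83841858, minus strand, with 2 overlapping matches to the NF-kB consensus at 173 and 172 bases:
Tlr2: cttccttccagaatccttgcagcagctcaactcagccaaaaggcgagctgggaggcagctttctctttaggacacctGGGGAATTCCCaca
Tlr6, a partner of Tlr2 for diacylated lipoproteins, on chr5:64959167-64959416, minus strand, a window inside an annotated intron, with 2 overlapping interferon-stimulated response elements at 116 and 110 bases, both on the opposite strand:
Tlr6: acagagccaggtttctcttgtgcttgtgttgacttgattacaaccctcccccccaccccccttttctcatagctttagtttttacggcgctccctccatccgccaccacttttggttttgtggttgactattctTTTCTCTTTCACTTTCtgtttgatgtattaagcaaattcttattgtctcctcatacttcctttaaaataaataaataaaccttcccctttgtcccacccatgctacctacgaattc
Tlr13, the receptor for bacterial ribosomal RNA, on chrX:106143025-106143203, plus strand, with a core motif of PU.1, a myeloid transcription factor, at 83 bases:
Tlr13: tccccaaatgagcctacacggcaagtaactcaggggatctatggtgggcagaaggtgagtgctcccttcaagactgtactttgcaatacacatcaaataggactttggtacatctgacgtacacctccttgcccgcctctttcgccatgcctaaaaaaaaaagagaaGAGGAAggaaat
The interferon-stimulated response element was searched as GAAANNGAAA, the gamma-activated site as TTCNNNGAA and the PU.1 core as GAGGAA, on both strands. Among 32841 windows of the same length, 2.98% held the first, 7.02% the second, 7.25% the NF-kB consensus and 23.3% the PU.1 core. A PU.1 core was also found at 112 bases before the start of Tlr9 and at 23 bases in 1 window of Tlr1, and a gamma-activated site at 228 bases in the other window of Tlr1. The other window of Tlr6, chr5:64960049-64960298, at the 5′ end of the annotated gene, held no match to any of these motifs. A match describes letters in a window and was not tested as a binding site.

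Expanded CUG repeats were compared with short ones by setting CUG300 mice given vehicle against CUG10 mice given vehicle. Of the 10 members, 8 rose at an adjusted p under 0.05, and 0 fell. Among all genes tested, 7.37% rose and 3.34% fell by this rule (limma with Benjamini-Hochberg adjustment). At an unadjusted p under 0.05, 9 of the 10 members were higher, as were 16.3% of all genes. For 9 members every CUG300 vehicle mouse lay above every CUG10 mouse, which held for 18.2% of all genes. The median difference of the members was 1.16 on the log2 scale, against −0.01 over all genes tested. In bulk tissue, more cells of a type and more RNA per cell cannot be told apart.
Calls in this comparison depended on single mice. Leaving out any 1 of the 3 CUG10 mice, CUG300 vehicle replicate 3 or CWG-cPIP replicate 1 left 0 members called, although 8 or 9 of the 10 had an unadjusted p under 0.05 in each of these fits, where 12.3% to 14.6% of all genes were higher by that rule. Calls over all genes fell as well, from 1592 with all mice to 0, 2 and 0 when CUG10 replicate 1, 2 or 3 was left out, and to 0 and 265 when the CUG300 vehicle or the CWG-cPIP mouse was. Without CUG300 vehicle replicate 2, 4 members were called, namely Tlr2, Ly96, Tlr7 and Myd88, beside 8.91% of all genes that rose. Without CUG300 vehicle replicate 1 the count stayed at 8, but Tlr6 was called in place of Ly96, beside 8.49% of all genes that rose. Without CWG-cPIP replicate 3 Tlr6 was called as well, which made 9, beside 10.3% of all genes that rose. All 10 differences were above 0 in every fit without 1 mouse, with the lowest at 0.40.

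**Figure D1:**
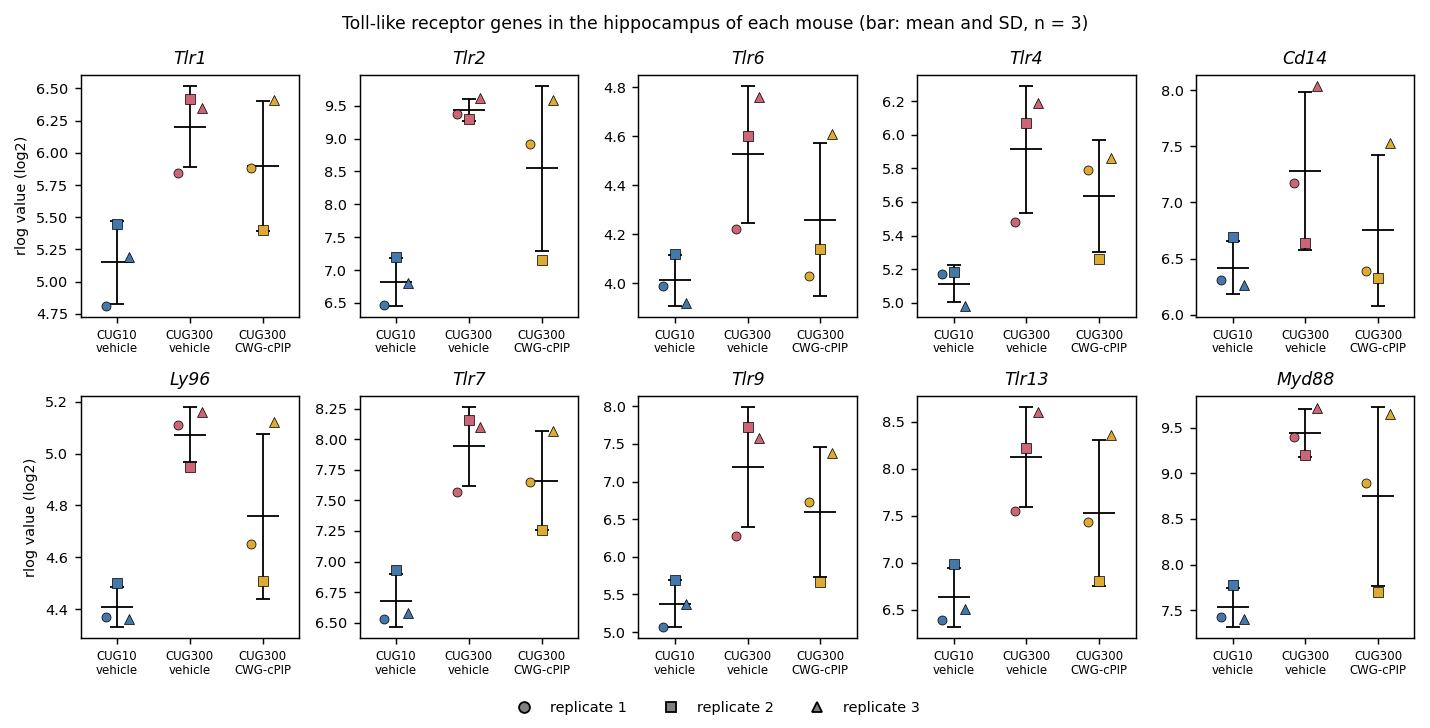
Regularized log2 value of each member in each mouse, with the group mean and SD as bars (n = 3 mice) and replicates as different marker shapes. Each panel has its own vertical scale. For every gene but Cd14 the CUG300 vehicle mice sit above all CUG10 mice, and in the CWG-cPIP group replicate 3 is the highest mouse for all 10 genes.

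Among surface receptors, Tlr2 had the largest difference of the members. It recognises bacterial lipoproteins as a pair with Tlr1 or Tlr6, and its gene lies on chromosome 3 from 83836272 to 83841767 (GRCm38). Its rlog values were 6.47, 7.20 and 6.80 in CUG10 mice, 9.38, 9.30 and 9.62 in CUG300 vehicle mice, and 8.92, 7.15 and 9.58 in CWG-cPIP mice. The CUG300 vehicle mice stood close together, more than 2 log2 units above the highest CUG10 mouse, while the CWG-cPIP mice spanned nearly the whole distance between both groups. Tlr2 rose by 2.61 with expanded repeats (SE 0.51, 95% interval 1.45 to 3.77, limma adjusted p = 0.0246), a 6.11-fold difference on this scale.
Tlr1, on chromosome 5 from 64924679 to 64933563, encodes the partner of Tlr2 for triacylated lipoproteins. Values of Tlr1 were 4.81, 5.45 and 5.19 in CUG10 mice, 5.84, 6.42 and 6.35 in CUG300 vehicle mice, and 5.88, 5.40 and 6.41 with CWG-cPIP. The vehicle groups did not overlap, and the difference was 1.06 (SE 0.28, limma adjusted p = 0.0439).
Tlr6 lies beside Tlr1 on the same chromosome, from 64952031 to 64960097, and was the lowest of the members per transcript length. It had 3.99, 4.12 and 3.92 in CUG10 mice, 4.22, 4.60 and 4.76 in CUG300 vehicle mice, and 4.03, 4.14 and 4.61 with CWG-cPIP. The vehicle groups did not overlap here either, but the difference of 0.51 did not pass (SE 0.18, limma adjusted p = 0.0973). Tlr1 and Tlr6 are close relatives, and how the estimated counts divided reads that fit both is not known, so the separate values of the pair are uncertain.
Tlr4, on chromosome 4 from 66827584 to 66930284, is the receptor for lipopolysaccharide. CUG10 mice had 5.17, 5.18 and 4.98, CUG300 vehicle mice 5.48, 6.07 and 6.19, and CWG-cPIP mice 5.79, 5.26 and 5.86. CUG300 vehicle replicate 1 stood nearer to the CUG10 mice than the other two. Tlr4 rose by 0.80 (SE 0.22, limma adjusted p = 0.0480).

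The lipopolysaccharide co-receptors differed in how clearly the groups separated. Ly96 (also known as MD-2, on chromosome 1 from 16688051 to 16709611) forms the ligand pocket of Tlr4. Its values were 4.37, 4.50 and 4.36 in CUG10 mice, 5.11, 4.95 and 5.16 in CUG300 vehicle mice, and 4.65, 4.51 and 5.12 with CWG-cPIP. The spread within both vehicle groups was small (SD 0.08 and 0.11), and the rise of 0.67 passed (SE 0.16, limma adjusted p = 0.0328).
Cd14, on chromosome 18 from 36725067 to 36726798, hands lipopolysaccharide to Tlr4 and Ly96. It had 6.31, 6.69 and 6.26 in CUG10 mice, 7.17, 6.64 and 8.04 in CUG300 vehicle mice, and 6.39, 6.33 and 7.53 with CWG-cPIP. Cd14 was the only member whose vehicle groups overlapped, since CUG300 vehicle replicate 2 lay below the highest CUG10 mouse. Its difference was 0.86 (95% interval −0.03 to 1.76, limma adjusted p = 0.177), which the 3 mice per group did not resolve from 0.

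The 3 endosomal receptors all rose. Tlr7 (chromosome X from 167304929 to 167330558) recognises single-stranded RNA and had the smallest adjusted p of the members. It had 6.53, 6.93 and 6.58 in CUG10 mice, 7.57, 8.16 and 8.10 in CUG300 vehicle mice, and 7.65, 7.26 and 8.07 with CWG-cPIP. Every CUG300 mouse, with or without CWG-cPIP, lay above every CUG10 mouse. With vehicle the rise was 1.26 (SE 0.23, 95% interval 0.73 to 1.79, limma adjusted p = 0.0227).
Tlr9 (chromosome 9 from 106222598 to 106226883) recognises unmethylated CpG DNA. CUG10 mice had 5.07, 5.69 and 5.37, CUG300 vehicle mice 6.27, 7.73 and 7.58, and CWG-cPIP mice 6.73, 5.67 and 7.38. CUG300 vehicle replicate 1 was more than 1 log2 unit below the other mice of its group. Tlr9 rose by 1.82 (SE 0.48, limma adjusted p = 0.0447), with an interval from 0.74 to 2.90.
Tlr13 (chromosome X from 106143204 to 106160493), which recognises bacterial ribosomal RNA, had 6.39, 6.99 and 6.51 in CUG10 mice, 7.55, 8.22 and 8.61 in CUG300 vehicle mice, and 7.43, 6.81 and 8.36 with CWG-cPIP. Again replicate 1 was the lowest of the CUG300 vehicle mice without reaching the CUG10 range. Its rise was 1.5 (SE 0.39, limma adjusted p = 0.0449).
Myd88, the adaptor shared by the Toll-like receptors among the members (chromosome 9 from 119335934 to 119341411), showed the second largest difference of the members. It had 7.42, 7.78 and 7.40 in CUG10 mice, 9.40, 9.20 and 9.72 in CUG300 vehicle mice, and 8.89, 7.70 and 9.65 with CWG-cPIP. No CUG300 vehicle mouse came within 1 log2 unit of a CUG10 mouse, and CWG-cPIP replicate 2 lay inside the CUG10 range. Myd88 rose by 1.91 (SE 0.41, 95% interval 0.99 to 2.83, limma adjusted p = 0.0273), a 3.76-fold difference.
The order of the 3 CUG300 vehicle mice differed between genes. Replicate 1 was the lowest of its group for 6 members, Tlr1, Tlr4, Tlr6, Tlr7, Tlr9 and Tlr13, and replicate 2 for the other 4, Tlr2, Cd14, Ly96 and Myd88. Replicate 3 was lowest for 0 members and highest for 7. Over all genes tested, the replicates were lowest for 39%, 35.7% and 25.3% of genes.

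Levels of different genes were compared only after subtracting log2 of the length in kilobases of the longest annotated transcript. On this length-scaled rlog scale, CUG10 mice had the highest level for Myd88 (6.56 ± 0.21, mean ± SD, n = 3), followed by Cd14 (5.71 ± 0.24), Tlr2 (5.23 ± 0.37) and Ly96 (5.07 ± 0.08). Tlr7 (4.72 ± 0.22) and Tlr13 (4.61 ± 0.32) came next, then Tlr9 (3.58 ± 0.31), Tlr1 (3.55 ± 0.32), Tlr4 (3.08 ± 0.11) and Tlr6 (2.13 ± 0.10). Neighbours closer than their pooled SD were Tlr2 and Ly96, Tlr7 and Tlr13, and Tlr9 and Tlr1.
In CUG300 vehicle mice Myd88 was again first (8.47 ± 0.26), and Tlr2 stood second (7.84 ± 0.17), above Cd14 (6.57 ± 0.71). Tlr13 (6.11 ± 0.54), Tlr7 (5.98 ± 0.32), Ly96 (5.74 ± 0.11) and Tlr9 (5.40 ± 0.80) followed, with Tlr1 (4.61 ± 0.32), Tlr4 (3.89 ± 0.38) and Tlr6 (2.65 ± 0.28) last. Cd14 and Tlr13, Tlr13 and Tlr7, and Ly96 and Tlr9 were closer than their pooled SD. With CWG-cPIP, Myd88 (7.78 ± 0.98) and Tlr2 (6.96 ± 1.26) were again the highest means, and the first 7 members down to Tlr9 (4.80 ± 0.86) did not differ from their next neighbour beyond this spread.

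CWG-cPIP was set against vehicle in CUG300 mice to ask how the members stood when the repeat was targeted. All 10 mean differences were below 0, from −0.88 for Tlr2 to −0.27 for Tlr6, with a median of −0.42 against −0.003 over all genes tested. None passed: 0 of 10 members and 0% of all genes were lower at an adjusted p under 0.05. At an unadjusted p under 0.05 there were likewise 0 members, beside 3.6% of all genes. No member had groups without overlap, which 3.5% of all genes had in this direction.
The smallest unadjusted p among the members was 0.0723, for Ly96, whose difference was −0.32 (95% interval −0.67 to 0.04, limma adjusted p = 0.483). For Tlr2 the interval ran from −2.04 to 0.28, and for Myd88, with a difference of −0.69, from −1.62 to 0.23 (limma adjusted p = 0.483 for both). Tlr9 (−0.60, interval −1.68 to 0.48) and Tlr13 (−0.60, interval −1.49 to 0.29) were as imprecise. Tlr7, at −0.28, had an interval from −0.81 to 0.25, and Tlr1, at −0.31, one from −0.93 to 0.32. Cd14 was at −0.53 (interval −1.43 to 0.36), and Tlr4 at −0.28 (interval −0.77 to 0.21). These intervals include both 0 and reductions of considerable size, so 3 mice per group did not settle the direction.
The members' spread was widest in the treated mice. Within-group SDs of the members had a median of 0.23 in CUG10 mice, 0.32 in CUG300 vehicle mice and 0.59 with CWG-cPIP, against 0.10, 0.22 and 0.14 over all genes tested. The largest was that of Tlr2 with CWG-cPIP, 1.25.
CWG-cPIP replicate 3 was the highest of its group for all 10 members, and replicate 2 the lowest for all except Tlr6. Of the 9 members whose vehicle groups did not overlap, replicate 2 lay at or below the highest CUG10 mouse for 5, Tlr1, Tlr2, Tlr9, Tlr13 and Myd88, and between the groups for the other 4. Replicate 3 reached the range of the CUG300 vehicle mice for all 9. Replicate 1 reached it for 4, lay between the groups for 4 and was in the CUG10 range for Tlr6. Over the 2707 genes that were higher in CUG300 vehicle mice without overlap, replicate 2 was in the CUG10 range for 51.9% and replicate 3 reached the CUG300 vehicle range for 86.7%, so these positions were shared by many genes.
Without CWG-cPIP replicate 3, the differences from CUG300 vehicle ran from −1.40 to −0.39, with 6 members at an unadjusted p under 0.05, beside 13.4% of all genes that were lower, and 0 at an adjusted p under 0.05. Without replicate 2 they ran from −0.32 to −0.06, and 0 members passed at either threshold, beside 1.64% of all genes lower at the unadjusted one.

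**Figure D2:**
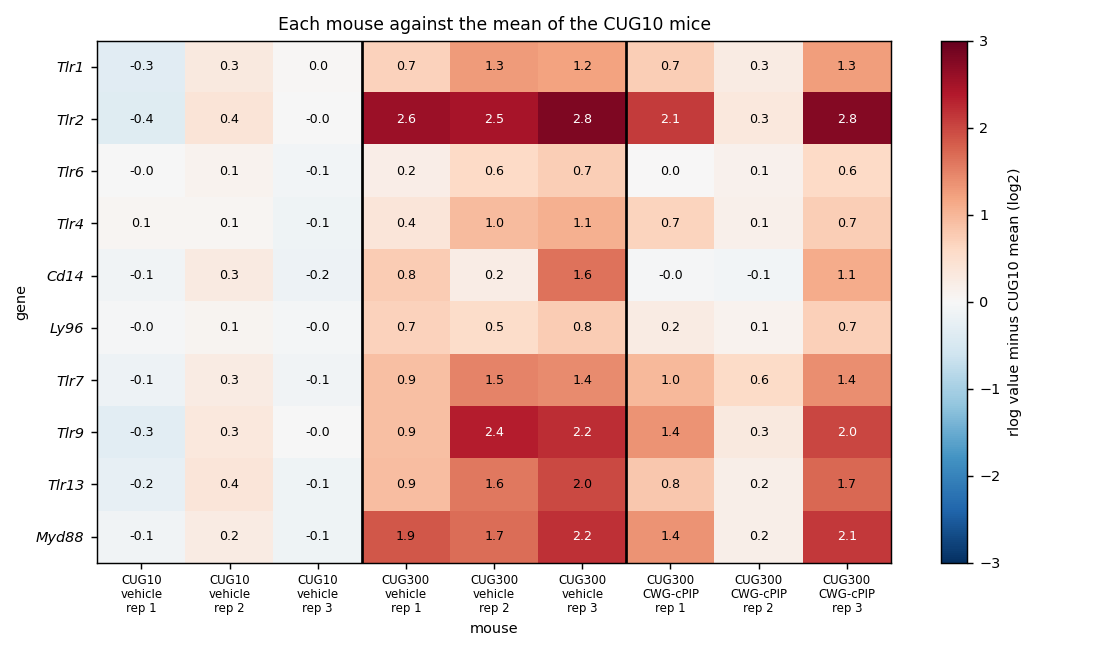
Regularized log2 value of each member (rows) in each mouse (columns) minus the mean of the 3 CUG10 mice, with the difference printed in each cell. In the CWG-cPIP group, replicate 2 is at 0.3 and replicate 3 at 2.8 for Tlr2, where the CUG300 vehicle mice are at 2.5 to 2.8.

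CWG-cPIP-treated CUG300 mice were also set against CUG10 mice, a comparison in which both repeat length and treatment differ. All 10 mean differences were above 0, from 0.25 for Tlr6 to 1.73 for Tlr2. No member passed at an adjusted p under 0.05, as was true of 0% of all genes, and the smallest adjusted p was 0.16, for Tlr7. At an unadjusted p under 0.05, 7 members were higher, against 8.12% of all genes. Tlr4, Ly96 and Tlr7 had groups without overlap, 3 of 10 against 13.4% of all genes.
Tlr7 was 0.98 higher (95% interval 0.45 to 1.51), Myd88 1.22 higher (0.29 to 2.14) and Tlr2 1.73 higher (0.57 to 2.89) by their means. Cd14 stood at 0.33 with an interval from −0.56 to 1.23, and Tlr6 at 0.25 with one from −0.16 to 0.66. Without CWG-cPIP replicate 2, Tlr2, Tlr7 and Myd88 passed the adjusted threshold, 3 of 10 members, beside 3.34% of all genes that were higher by that rule. Without replicate 3 no member did, with 3 members at an unadjusted p under 0.05, beside 5.52% of all genes. This comparison shares its CUG10 mice with the first one and its treated mice with the second, so the 3 sets of differences are not independent.
Across all groups at once, an F test called 0 of 10 members and 0% of all genes at an adjusted p under 0.05 (limma). Adjusted p-values of the members ran from 0.0607 for Tlr7 and 0.0693 for Tlr2 to 0.352 for Cd14. At an unadjusted p under 0.05 the F test had 8 members, against 23.5% of all genes. It called 7 members without CWG-cPIP replicate 2, where it called 7% of all genes, and 6 without replicate 3, where it called 9.98%.

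**Figure D3:**
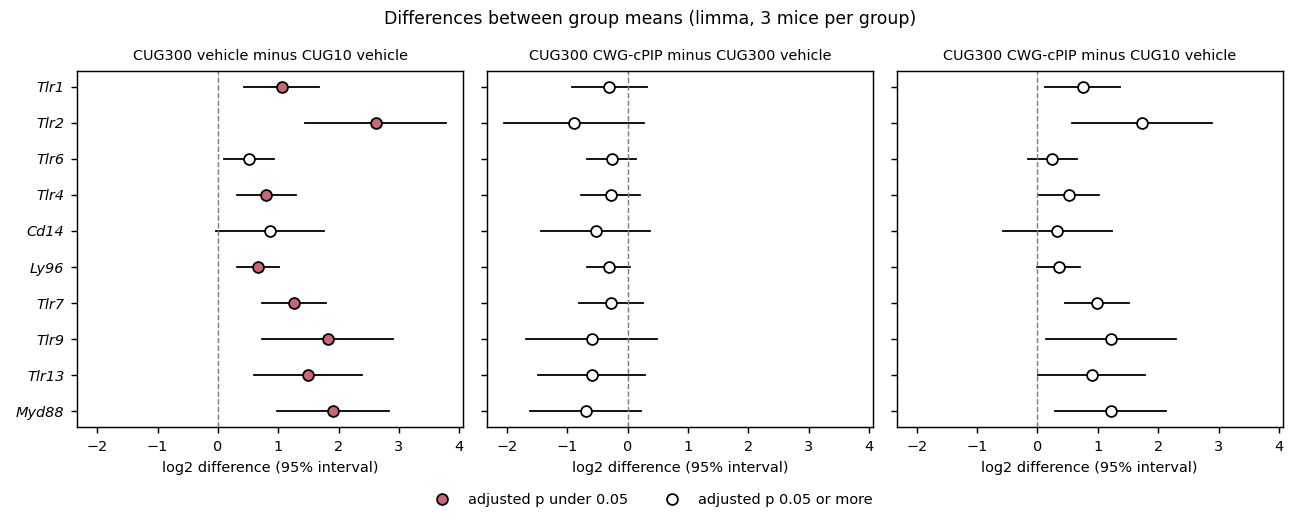
Log2 difference of group means with its 95% interval for each member, in each of the 3 comparisons (limma, n = 3 mice per group). Filled points passed an adjusted p under 0.05, which 8 members did between the vehicle groups and 0 in the comparisons with CWG-cPIP, where Tlr2 had the widest intervals.

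Some markers of cells that carry these receptors moved with the groups. Of 8 microglia markers, 2 rose between the vehicle groups, Aif1 by 1.63 and Tmem119 by 0.77 (limma adjusted p = 0.0422 and 0.0265), and the median difference of the list was 0.23. Summed over the list, CUG10 mice had 12.71 to 13.05 and the CUG300 vehicle group 13.25 to 13.39 on the log2 scale. The treated group had 12.94 to 13.22. Of the microglia markers, 0 had a value of 0 in all 9 mice. P2ry12 and Sall1, which mark resting microglia, had differences of −0.34 and −0.12 that did not pass (limma adjusted p = 0.400 and 0.685).
After the mean of the microglia markers was subtracted in each mouse, 7 of the 10 members had CUG300 vehicle mice all above the CUG10 mice, against 6.32% of all genes after the same subtraction. The difference was then 2.24 for Tlr2, 1.54 for Myd88, 1.44 for Tlr9, 1.12 for Tlr13, 0.89 for Tlr7, 0.68 for Tlr1 and 0.29 for Ly96. Tlr4 (0.43), Cd14 (0.49) and Tlr6 (0.14) overlapped. With the same mean as a covariate, all 10 differences were above 0, from 0.17 to 1.29, but 0 members passed at an adjusted or an unadjusted p under 0.05. In that fit 0 of all genes passed the adjusted threshold, and 2.03% were higher at the unadjusted one. The marker mean itself separated the vehicle groups (9.09 to 9.45 against 9.57 to 9.69), so in that fit the groups and the marker mean cannot be told apart.

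**Figure D4:**
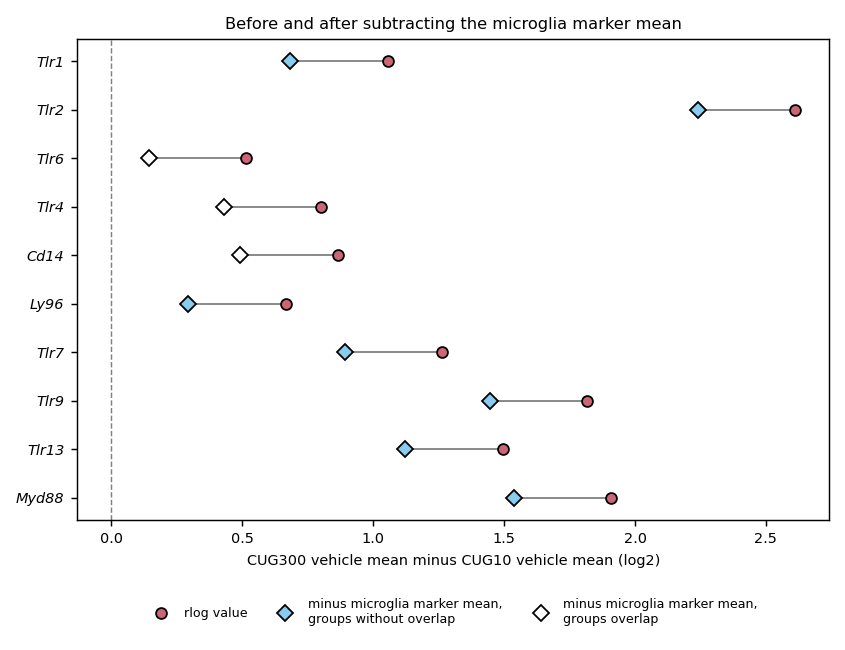
Difference between CUG300 vehicle and CUG10 group means for each member, as rlog value (circles) and after subtracting the mean of 8 microglia markers in each mouse (diamonds, filled where the groups did not overlap). Tlr2 went from 2.61 to 2.24 and Tlr6 from 0.51 to 0.14.

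All 4 monocyte markers rose between the vehicle groups: Ly6c2 by 4.52, Plac8 by 4.38, Ccr2 by 2.82 and Chil3 by 2.48. Summed over the list, the log2 level was 7.48 to 7.92 with 10 repeats, 11.48 to 12.19 with 300 repeats and vehicle, and 8.51 to 11.97 with CWG-cPIP. Of these markers, 0 had a value of 0 in all 9 mice. In the CWG-cPIP group the mean of the monocyte list was 7.83, 6.28 and 9.10 for replicates 1, 2 and 3, the same order as for 9 of the 10 members. That order was not particular to monocyte markers. The means were 9.47, 9.33 and 9.53 for microglia markers and 4.68, 4.34 and 5.35 for T cell markers. B cell and plasmacytoid dendritic cell markers had 4.92, 4.89 and 5.24, whereas border macrophage markers had 4.88, 5.14 and 4.76. The part of these cells in the members' differences was not tested. Ly6c2 belongs to a family with close copies, and its value is uncertain.
Of 4 markers of macrophages at the brain's borders (Mrc1, Cd163, Lyve1 and Pf4), 0 passed, with summed levels between 6.54 and 6.94 in the CUG10 group and between 6.79 and 7.19 in the CUG300 vehicle group. Among neutrophil markers, S100a8, S100a9 and Retnlg were listed but under the minimum level in the mean, with a summed level of 2.18 to 2.33 in every mouse of the study. T cell markers rose in 2 of 4 (Cd3g and Cd8a) and B cell and plasmacytoid dendritic cell markers in 1 of 3 (Cd79a), with Siglech, a gene of plasmacytoid dendritic cells and microglia, at 0.15 (limma adjusted p = 0.585).
Choroid plexus markers had a list mean of 6.77 to 9.73 with 10 repeats and 8.73 to 10.2 with 300 repeats and vehicle. With CWG-cPIP it was 6.76 to 7.0, below every CUG300 vehicle mouse. Ttr, Kl, Folr1, Kcnj13 and Aqp1 were each lower with CWG-cPIP than with vehicle in CUG300 mice without overlap, as were 3.5% of all genes. The content of this tissue and the treatment therefore cannot be told apart in that comparison. With the list mean as a covariate, 0 members passed between the vehicle groups at an adjusted p under 0.05 and 9 at an unadjusted p under 0.05, with differences from 0.58 to 2.41. Of all genes, 0 passed the first threshold in that fit, and 12.7% were higher at the second. For CWG-cPIP against vehicle the same fit gave differences from −0.75 to −0.16. There 0 members passed either threshold, beside 0.552% of all genes lower at the second. For CWG-cPIP-treated against CUG10 mice they ran from 0.17 to 1.97, with 0 members at the first threshold and 3 at the second, beside 3.87% of all genes. Markers of other brain cells moved as well. Of 4 astrocyte markers, Gfap rose by 1.21 and Aqp4 by 0.91 (limma adjusted p = 0.0267 and 0.0228). Aldh1l1, at 0.44, and Slc1a2, at −0.85, did not pass (limma adjusted p = 0.0835 and 0.128). Of 4 neuron markers, Syt1 fell by 0.51 (limma adjusted p = 0.0430). Slc1a2 and all 4 neuron markers were lower in CUG300 vehicle mice without overlap, as were 16.7% of all genes. The median difference of the neuron markers was −0.47, whereas 0 of 4 oligodendrocyte and 0 of 4 endothelial markers passed. Their part in the members' differences was not tested. Diencephalon markers, from tissue that borders the hippocampus, had a list mean of 5.73 to 6.01, 5.84 to 6.77 and 6.92 to 7.19 in the same order of groups, and their part was not tested.

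The other genes of the pathway were followed in 8 lists of 55 genes, of which 52 were tested. Between the vehicle groups 18 rose and 1 fell, beside 7.37% and 3.34% of all genes. The median difference of the 52 genes was 0.61. With CWG-cPIP against vehicle 0 passed, and 6 were lower and 0 higher at an unadjusted p under 0.05, beside 3.6% and 5.23% of all genes. CWG-cPIP-treated against CUG10 mice likewise gave 0 calls, with 15 higher and 1 lower at that threshold, beside 8.12% and 5.31% of all genes. The 19 calls fell to 0 without any 1 of the CUG10 mice or CUG300 vehicle replicate 3, to 3 without CWG-cPIP replicate 1 and to 11 without CUG300 vehicle replicate 1.
Among the other Toll-like receptors, Tlr3, the endosomal sensor of double-stranded RNA that does not use Myd88, was the only one called. It had 8.07, 8.45 and 8.21 in CUG10 mice, 10.09, 10.09 and 9.99 in CUG300 vehicle mice, and 9.97, 8.88 and 10.19 with CWG-cPIP. The rise was 1.81 (SE 0.29, limma adjusted p = 0.0207), and CWG-cPIP replicate 2 was again the lowest of its group. Tlr8, the neighbour of Tlr7 on chromosome X, had a difference of 0.79 that did not pass (limma adjusted p = 0.0848), and neither did Tlr12 at 0.64 (limma adjusted p = 0.0756). Tlr5 and Tlr11 were under the minimum level, at 1.38 to 2.45 in every mouse.
Of the 4 other adaptors with a TIR domain, Tirap, which bridges Myd88 to Tlr2 and Tlr4, rose by 0.60 (limma adjusted p = 0.0417). Ticam1, the adaptor of Tlr3, was at 0.35 (limma adjusted p = 0.0629), and Sarm1, an NAD-cleaving enzyme of axons, at −0.57 (limma adjusted p = 0.0504). Among 14 kinases and scaffolds downstream, Irak4, the first kinase recruited to Myd88, rose by 0.88 (SE 0.19, limma adjusted p = 0.0272) and the other 13 did not pass. Irak1, which acts after Irak4, was at 0.13 (limma adjusted p = 0.342), and Ikbke had the largest difference of the list, 0.98, with an adjusted p of 0.0937 (limma).
Genes that carry and process endosomal receptors rose in 3 of 8. Unc93b1, which escorts these receptors to endosomes, rose by 1.38 (SE 0.31, limma adjusted p = 0.0306). Its values were 8.55, 9.12 and 8.68 in CUG10 mice, 9.96, 10.08 and 10.45 in CUG300 vehicle mice, and 9.54, 8.98 and 10.33 with CWG-cPIP. The vehicle groups were apart by more than 0.8, and CWG-cPIP replicate 2 fell inside the CUG10 range. The lysosomal proteases Ctss and Lgmn, which cleave receptor ectodomains, rose by 1.70 and 0.96 (limma adjusted p = 0.0317 and 0.0352). Cnpy3, a chaperone of these receptors, was at −0.02 (limma adjusted p = 0.908).
Of 5 nucleases of the endolysosome, 3 rose and 1 fell. Pld4, an exonuclease that degrades single-stranded nucleic acids in myeloid cells, rose by 1.40 (limma adjusted p = 0.0267), whereas the related Pld3 fell by 0.36 (SE 0.08, limma adjusted p = 0.0317). Pld3 had 12.80, 12.67 and 12.71 in CUG10 mice and 12.29, 12.41 and 12.39 in CUG300 vehicle mice. Dnase2a, a lysosomal DNase, rose by 1.00 and Rnaset2a, a lysosomal RNase, by 1.04 (limma adjusted p = 0.0366 and 0.0417). Rnaset2a and Rnaset2b are near-identical copies, so their values are uncertain.
Among 7 relatives and brakes of the pathway, Cd180, a receptor homologous to Tlr4, rose by 1.93 (SE 0.35, limma adjusted p = 0.0222), and its partner Ly86, the counterpart of Ly96, by 1.37 (SE 0.18, limma adjusted p = 0.0207). Nfkbia, the inhibitor that NF-kB induces, rose by 0.74 (limma adjusted p = 0.0369). Of 2 ligand carriers, the scavenger receptor Cd36 rose by 0.89 (limma adjusted p = 0.0250), and Lbp, which delivers lipopolysaccharide to Cd14, was at 0.71 (limma adjusted p = 0.267).
Of 9 tested cytokines and early genes that the pathway can induce, 5 rose. Ccl4 had 5.19, 5.80 and 5.28 in CUG10 mice, 8.53, 7.63 and 8.33 in CUG300 vehicle mice, and 7.25, 5.34 and 8.45 with CWG-cPIP. Ccl4, a chemokine for monocytes and T cells, rose by 2.74 (SE 0.65, limma adjusted p = 0.0343), with CWG-cPIP replicate 2 inside the CUG10 range. The chemokine Ccl3 rose by 2.00, the cytokines Il12b by 1.92, Il6 by 1.80 and Tnf by 1.58 (limma adjusted p between 0.0281 and 0.0438). Il1b, at 1.55, did not pass (limma adjusted p = 0.0634), although its vehicle groups did not overlap.

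**Figure D5:**
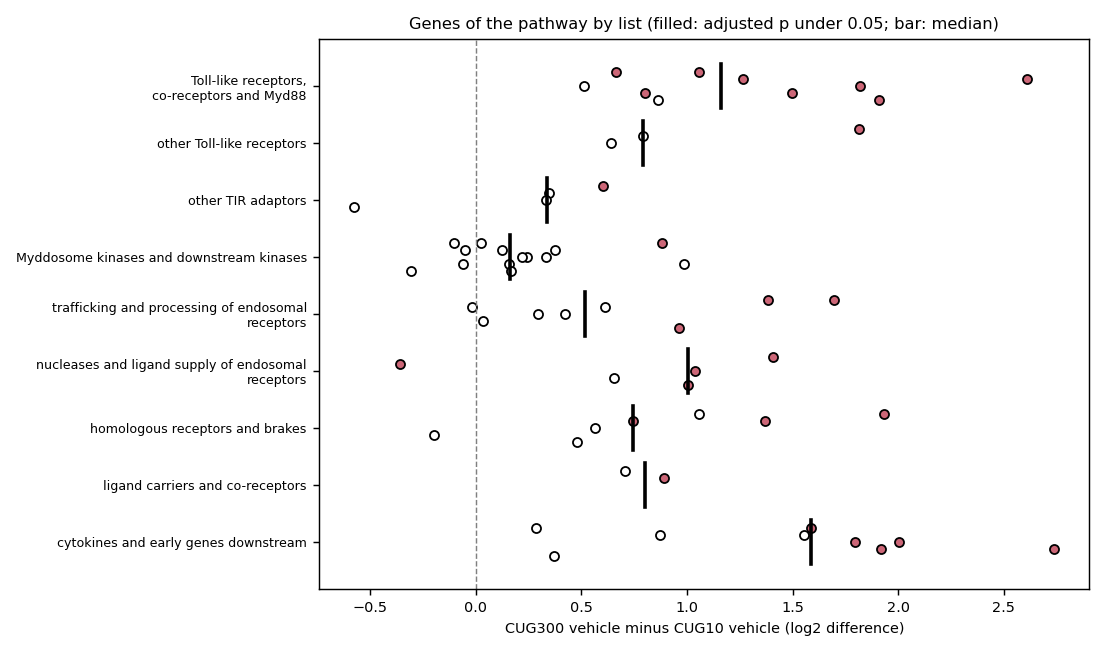
Log2 difference between CUG300 vehicle and CUG10 mice for each tested gene of the members and the 8 pathway lists, filled where the adjusted p was under 0.05, with the median of each list as a bar. Medians were 1.16 for the members, 0.16 for kinases and 1.58 for cytokines and early genes.

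The genes whose rlog values followed each member most closely over the 9 mice were listed by the root mean square difference of centred values, as a description. Tlr2 was closest to Tor3a (0.119) and Uba7 (0.130), and Myd88 to H2-T10 (0.0975) and Gsdmd, which encodes the pore-forming protein of pyroptosis (0.110). Tlr1 and Tlr7 shared Ikzf1, a transcription factor of blood cells, among their 2 closest genes (0.0959 and 0.0911), beside Runx1 and Erap1. Tlr13 was closest to Hmha1 (0.0817) and Pim1 (0.0907), Tlr9 to Pik3ap1 (0.160) and Gvin1 (0.220), and Tlr4 to Nek6 (0.108) and Apbb1ip (0.109). For Tlr6 the closest were H2-DMb2 (0.0578) and Clec4n (0.0700), for Ly96 Sptlc2 (0.0470) and Pgd (0.0672), and for Cd14 B3gnt8 (0.167). A small difference is easier to reach for a gene that varies little, such as Ly96, whose SD over the 9 mice was 0.34, than for Tlr2, at 1.33.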

How the data were processed

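Hippocampal total RNA of 9 mice was made into libraries with a directional kit. Per the methods and the submitters' processing notes, Trim Galore 0.6.6 was used for trimming, STAR 2.7.9a for alignment to GRCm38/mm10 and RSEM 1.3.3 for gene quantification. The authors deposited regularized logarithms (log2), computed with DESeq2 1.36.0, in a table for each mouse. Which gene annotation was used, and whether counting used strand, is not given in the sources used here. Depth is unknown, so no model of counts was used and precision rests on the spread between mice.
Groups were taken from the labels. The minimum for testing was an average of log2(10), or 3.322, across the 9 mice, which 14867 genes reached. Group means were fitted in R 4.3.3 (limma 3.58.1), with all 9 mice for the variance, a variance trend and Benjamini-Hochberg adjustment within each comparison. An adjusted p under 0.05 made a call, and all tests were two-sided. The procedure was run on simulated data with noise drawn independently for each gene and mouse. Shifts of a mouse shared by many genes were not simulated, so that run does not bear on how calls depend on single mice. Coordinates and transcript lengths come from GENCODE M21 and promoter windows from RefSeq, both on GRCm38. The share of promoters with a motif was counted over all 32841 windows.
The members and gene lists were chosen with earlier results of these data known. Named genes were the members, the first 2 and the 2 most changed genes of each pathway list, and the 2 genes most like each member. A gene that this rule names is not reported here. Other called or listed genes are named after their values were seen. Figures were drawn with matplotlib 3.10.9. Alternatives were median centring, quantile scaling, no filter, a stricter minimum of log2(100) (11281 genes), no variance trend, robust moderation, fits on pairs of groups, a block for the replicate number, a covariate for microglia or choroid plexus markers, an adjusted p under 0.10 and leaving out each mouse.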

Additional observations from a re-analysis of the deposited data

How the results depend on the processing

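Between the vehicle groups, 8 members were called as reported. Quantile scaling, no filter on low values and a mean of at least log2(100) each left 4, the last of these because 5 members have too low a mean to be tested. With the microglia or the choroid plexus marker mean as a covariate 0 were called, and leaving out 1 mouse gave between 0 and 9. Both covariate fits also called 0 of all genes, and the fits without 1 mouse that called 0 members called 0 to 265 of all genes, against 1592 with all mice. Of the other pathway genes 19 were called as reported, 12 with a mean of at least log2(100), 0 with either covariate, 35 at an adjusted p under 0.10, and between 0 and 27 without 1 mouse. Calls over all genes ran from 0 to 2490 without 1 mouse, and the looser threshold can only add calls. For CWG-cPIP-treated against CUG10 mice, leaving out 1 mouse gave between 0 and 3 members and between 0 and 9 pathway genes. The F test gave 0 to 7 members without 1 mouse, and 4 at an adjusted p under 0.10. CWG-cPIP against vehicle gave 0 members and 0 pathway genes under every alternative run. The cause of these shifts was not tested. Cd14, at 0.33 in CWG-cPIP-treated against CUG10 mice, was −0.056 without CWG-cPIP replicate 3, with a range of −0.056 to 0.5402 over the fits without 1 mouse, and −0.0422 with the microglia covariate, and no other member changed sign in any comparison.
Groups share replicate numbers. Correlations of deviations from the group means ran from −0.499 to 0.413 between same-numbered mice and from −0.524 to 0.461 between the others. For CUG300 vehicle and CWG-cPIP mice of the same number they were −0.179, 0.405 and 0.413. With 3 mice per group, deviations from a group mean depend on one another, so these values do not settle whether the numbers pair the mice. With the replicate number as a block, 6 members were called between the vehicle groups, without Tlr4 and Tlr9. Among all genes called between the vehicle groups, 68.8% were higher as reported, 52.8% with median centring and 58% with quantile scaling. These scalings shifted the median of all genes by −0.077 and −0.075, and all 10 members kept their direction in each comparison. Depth is unknown, and 3 mice per group limit every interval.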
